A study of Mus musculus with 32 samples.

Results

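The macrophage marker genes of cultured mouse pancreatic islets were followed in a study of islet amyloid and the steroidogenic protein StAR. They were taken from the gene count table as the rows named Csf1r, Cx3cr1, Adgre1, Itgam, Mrc1, C1qa, C1qb, C1qc, Lyz2 and Cd68, so the members were 10 of the 36595 genes in the table, each with 1 row. All 10 passed the filter on low counts, as did 16428 genes in all. The islets were isolated from 10-week-old male and female C57BL/6NHsd mice, left overnight in medium with 11.1 mM glucose, and then cultured for 48 h at 16.7 or 11.1 mM glucose. Both concentrations were used for both genotypes, which gave 4 groups of 8 libraries: hIAPP and mIAPP islets at 16.7 mM, then hIAPP and mIAPP islets at 11.1 mM. In hIAPP mice homologous recombination had put human IAPP, the gene of islet amyloid polypeptide, at the mouse locus, and mIAPP mice were wild-type littermates. Human islet amyloid polypeptide can form amyloid in cultured islets and the mouse protein does not, which is general knowledge of this model and was not measured by these libraries. The 4 groups were run together in each of 8 numbered sets of experiments, and the number of mice behind each set is not given. Groups were compared within sets. The p-values of single genes set each difference against the spread left among the 32 libraries once group and set were accounted for.

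Poly(A) RNA was sequenced with strand kept, and the libraries held 16.1 to 43.7 M counts each. The replaced gene was checked in every library: the row of mouse Iapp had a lowest, median and highest level of 9764, 11091 and 11583 CPM (counts scaled to a common library size, with TMM factors) in hIAPP islets at 16.7 mM, against 16864, 24438 and 30408 CPM in mIAPP islets at 16.7 mM. At 11.1 mM it had 5647, 6678 and 7912 CPM in hIAPP islets, against 8645, 11685 and 15614 CPM in mIAPP islets. Every hIAPP library lay below every mIAPP library of the same concentration, but none was near 0, and how reads of the human gene were counted is not given in the sources used here.

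Islets contain a small resident population of macrophages that lie close to the capillaries and the beta cells. These cells depend on signals through the colony-stimulating factor 1 receptor for their survival. In type 2 diabetes and in mice that express human islet amyloid polypeptide, islet macrophages are known to take up amyloid and to release inflammatory cytokines. Many macrophage genes are switched on by PU.1, the product of Spi1, which binds purine-rich sites around a GGAA core.

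The upstream sequences of 3 members are shown, since these genes gave different calls: C1qb was lower at 16.7 mM glucose in both genotypes, Cd68 passed as lower in mIAPP islets but not in hIAPP islets, a difference between the genotypes that did not itself pass (adjusted p = 0.348 by edgeR's quasi-likelihood test), and Itgam passed in neither. Each runs 5′ to 3′ on the gene's own strand and covers the 250 bases before the start site given by RefSeq on GRCm38.p6. Capitals mark GAGGAA, or TTCCTC where it lies on the other strand. The windows are chr4:136886201-136886450 (minus strand) for C1qb, chr11:69666171-69666420 (minus strand) for Cd68 and chr7:128062390-128062639 (plus strand) for Itgam, and none of the 3 holds a base of an annotated exon.
C1qb: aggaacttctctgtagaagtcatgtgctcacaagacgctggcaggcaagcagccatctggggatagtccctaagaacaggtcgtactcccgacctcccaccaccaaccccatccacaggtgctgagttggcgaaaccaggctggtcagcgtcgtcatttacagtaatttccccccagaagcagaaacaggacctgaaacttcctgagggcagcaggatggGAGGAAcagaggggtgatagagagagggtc
Cd68: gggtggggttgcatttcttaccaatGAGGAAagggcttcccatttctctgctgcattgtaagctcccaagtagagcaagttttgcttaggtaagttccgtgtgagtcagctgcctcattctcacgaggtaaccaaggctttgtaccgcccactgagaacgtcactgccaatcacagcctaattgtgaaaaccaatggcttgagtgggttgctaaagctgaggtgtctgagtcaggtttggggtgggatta
Itgam: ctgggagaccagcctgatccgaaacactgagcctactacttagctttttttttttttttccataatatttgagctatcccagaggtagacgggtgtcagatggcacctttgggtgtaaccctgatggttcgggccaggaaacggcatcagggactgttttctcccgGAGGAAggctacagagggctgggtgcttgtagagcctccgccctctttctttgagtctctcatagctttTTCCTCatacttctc
GAGGAA was found on either strand in the windows of 5 of the 7 members that have a RefSeq entry (C1qb, C1qc, Cd68, Itgam and Mrc1), against 23.3% of 32851 windows of the same length. The string AGGAAGT, which can overlap GAGGAA, was found in 4 of the 7 (C1qb, C1qc, Lyz2 and Mrc1), against 7.69% of all windows, and GAGGAAGT, which holds both shorter strings, in 1 of the 7 (C1qc), against 2.44%. GAGGAA stood in the windows of genes that were lower at 16.7 mM and of genes that were not, and the windows of Cx3cr1 and Lyz2, which were lower, held none. Of the 250 bases of each window, exons annotated in GENCODE M21 covered all 250 for Cx3cr1, 151 for C1qc, 49 for Lyz2 and 22 for Mrc1, so these windows are not upstream sequence alone. These matches describe letters in the sequence and were not measured as binding.

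Summed over the 10 genes, the macrophage markers were a small part of the RNA and were lower at the higher glucose concentration. The sum had a lowest, median and highest value of 91.5, 132 and 187 CPM in hIAPP islets at 16.7 mM, against 252, 341 and 434 CPM in hIAPP islets at 11.1 mM. In mIAPP islets it had 95.1, 146 and 207 CPM at 16.7 mM, against 204, 274 and 378 CPM at 11.1 mM. The hIAPP libraries at the 2 concentrations did not overlap, and those of mIAPP islets overlapped only in that the highest at 16.7 mM lay just above the lowest at 11.1 mM. As a mean ± SD over 8 libraries, the members took 0.0157 ± 0.00369% of the counts in hIAPP islets and 0.0144 ± 0.00439% in mIAPP islets at 16.7 mM, and 0.0333 ± 0.00698% in hIAPP islets and 0.0274 ± 0.00698% in mIAPP islets at 11.1 mM. In RNA from whole islets, fewer macrophages and less RNA of these genes per macrophage cannot be told apart.

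Per kilobase of annotated exon, the members covered a wide range of levels in every group. In hIAPP islets at 11.1 mM, C1qa stood at a mean of 81.8 CPM per kilobase, Lyz2 at 73.5, C1qb at 50.6, C1qc at 17.2 and Cd68 at 14.3 CPM per kilobase. In those libraries Csf1r stood at 4.64, Cx3cr1 at 3.34, Adgre1 at 2.17, Itgam at 0.372 and Mrc1 at 0.168 CPM per kilobase. The order was the same in mIAPP islets at 11.1 mM, and at 16.7 mM Cd68 stood above C1qc in both genotypes. In mIAPP islets at 16.7 mM, Cd68 at 7.00 and C1qc at 6.71 CPM per kilobase were closer than their spread. Their SDs there were 24.9% and 40.8% of their means. C1qa and Lyz2, neighbours at the top of the order in hIAPP islets at 11.1 mM, were closer than their spread, with SDs of 22.3% and 25.7% of their means. Itgam and Mrc1 rested on few reads, 12 to 92 counts for Itgam and 3 to 59 counts for Mrc1 per library, while C1qa had 550 to 3097 counts. No library was at 0 for any member.

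**Figure D1:**
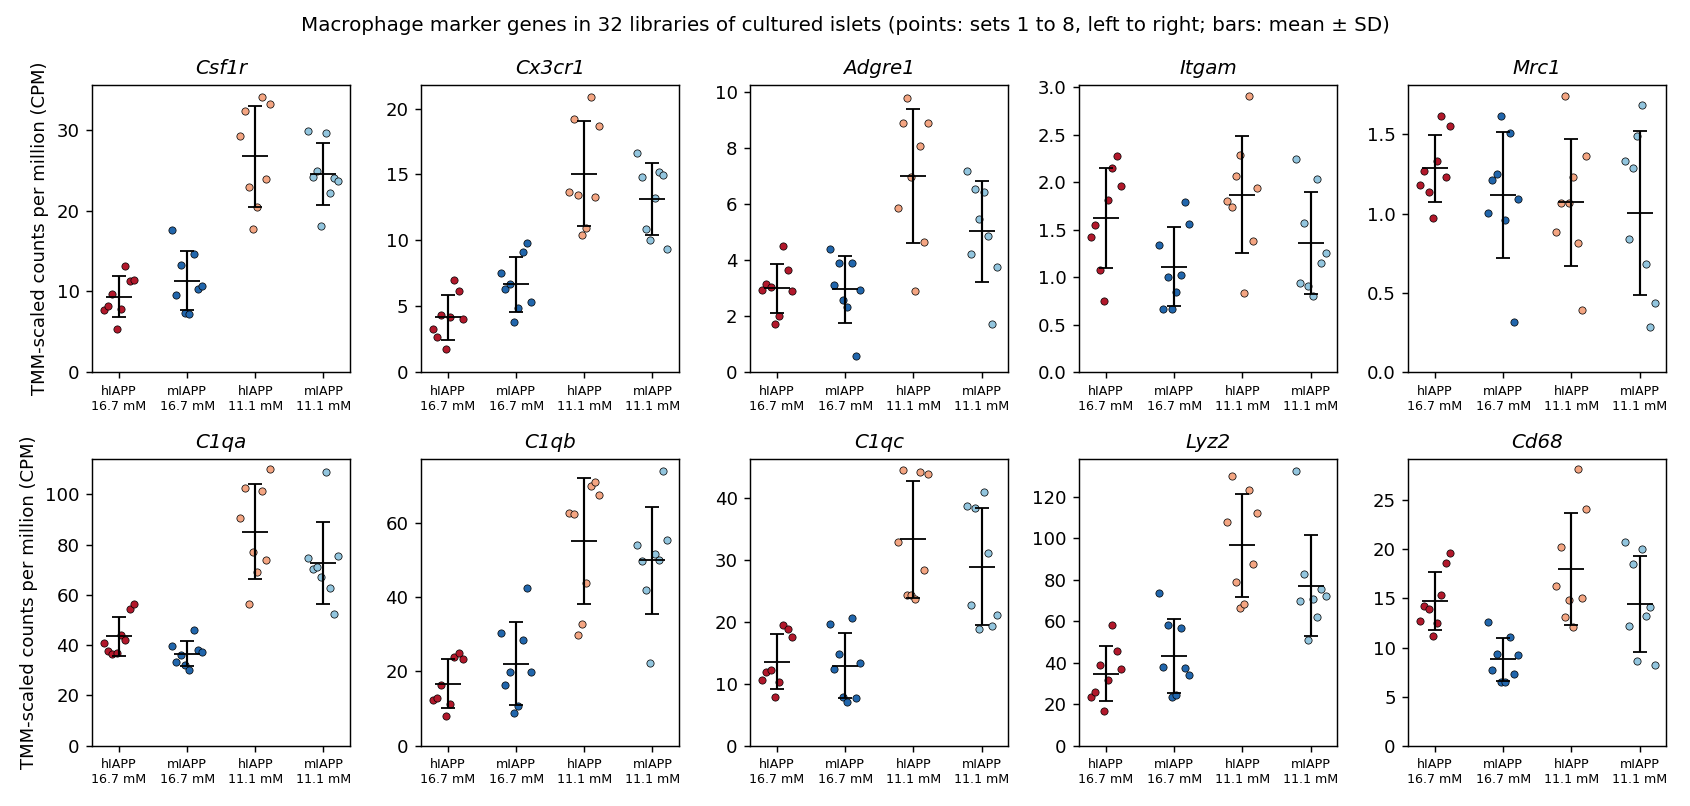
Levels of the 10 members in the 32 libraries, 1 panel a gene, with TMM-scaled CPM on the y axis and the 4 groups on the x axis. Points are the libraries of sets 1 to 8 from left to right, and bars give the mean ± SD (n = 8). Csf1r, at 5.32 to 13.2 CPM in hIAPP islets at 16.7 mM and 17.8 to 34.2 CPM in hIAPP islets at 11.1 mM, does not overlap between the concentrations, whereas Mrc1 lies between 0.286 and 1.74 CPM in all groups.

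The first comparison asks what 48 h at 16.7 mM glucose did to these genes within each genotype. Among hIAPP islets 7 of the 10 members fell and none rose: Csf1r, Cx3cr1, Adgre1, C1qa, C1qb, C1qc and Lyz2. In mIAPP islets the same 7 fell, and so did Cd68. Glucose moved much of the transcriptome, so these counts are read against it: by edgeR's quasi-likelihood test at an adjusted p under 0.05, 65.5% of all genes tested passed in hIAPP islets, 33.3% as lower and 32.2% as higher, and in mIAPP islets 47.5% passed, 22.7% as lower and 24.9% as higher. The median log2 fold change over the 10 members was -1.24 in hIAPP islets and -0.94 in mIAPP islets, while that over all genes tested was -0.024 in hIAPP islets and -0.026 in mIAPP islets. In hIAPP islets 7 members were lower in all 8 sets, as were 21.7% of all genes tested, and 6 had no overlap between the 8 libraries at 16.7 mM and the 8 at 11.1 mM, as had 8.38% of all genes tested in that direction. In mIAPP islets 7 members were lower in all 8 sets, against 11.3% of all genes tested, and 2 had no overlap, against 1.41%. No member was higher without overlap, as were 14.3% of all genes tested in hIAPP islets and 2.64% in mIAPP islets.

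Among the receptors, Csf1r is the receptor for colony-stimulating factor 1 and interleukin 34 (chromosome 18, 61100598 to 61132149 on GRCm38). It had a lowest, median and highest level of 5.32, 8.96 and 13.2 CPM in hIAPP islets at 16.7 mM, against 17.8, 26.6 and 34.2 CPM at 11.1 mM. In mIAPP islets it had 7.14, 10.5 and 17.6 CPM at 16.7 mM, against 18.2, 24.1 and 29.9 CPM at 11.1 mM. Every library at 16.7 mM lay below every library at 11.1 mM within its genotype. The log2 fold change was -1.53 ± 0.14 (SE) in hIAPP islets, 2.88-fold lower (adjusted p = 1.24e-09 by edgeR), and -1.16 ± 0.14 in mIAPP islets, 2.24-fold lower (adjusted p = 2.71e-07 by edgeR). Csf1r shares 873 bases of its exons, 15.1% of them, with Hmgxb3 on the opposite strand, and Hmgxb3 moved the other way, with a log2 fold change of 0.77 ± 0.17 in hIAPP islets (adjusted p = 0.000263 by edgeR) and 0.37 ± 0.17 in mIAPP islets, where it did not pass.

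Cx3cr1, the receptor for the chemokine fractalkine (chromosome 9, 119901616 to 120069879), had the lowest log2 fold change of the 10 genes in hIAPP islets. It had 1.78, 4.09 and 6.96 CPM in hIAPP islets at 16.7 mM, against 10.4, 13.6 and 20.8 CPM at 11.1 mM. The mIAPP libraries had 3.79, 6.50 and 9.83 CPM at 16.7 mM, against 9.35, 14.0045 and 16.6 CPM at 11.1 mM. The hIAPP libraries did not overlap, and among mIAPP libraries only the highest at 16.7 mM lay above the lowest at 11.1 mM. The fall was 3.76-fold in hIAPP islets (log2 -1.91 ± 0.16, adjusted p = 3.71e-10 by edgeR) and 2.03-fold in mIAPP islets (log2 -1.02 ± 0.16, adjusted p = 1.17e-05 by edgeR). Adgre1 encodes F4/80, the surface protein most used to identify mouse macrophages (chromosome 17, 57358691 to 57483527). It had 1.72, 2.99 and 4.52 CPM in hIAPP islets at 16.7 mM, against 2.90, 7.53 and 9.80 CPM at 11.1 mM. In mIAPP islets it had 0.581, 3.03 and 4.40 CPM at 16.7 mM, against 1.72, 5.17 and 7.20 CPM at 11.1 mM. Libraries of the 2 concentrations overlapped in both genotypes, yet within each of the 8 sets the 16.7 mM library was the lower one. The log2 fold change of Adgre1 was -1.18 ± 0.26 in hIAPP islets (adjusted p = 0.000315 by edgeR) and -0.82 ± 0.26 in mIAPP islets (adjusted p = 0.0108 by edgeR).

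Itgam and Mrc1 did not pass in either genotype. Itgam encodes CD11b, the alpha chain of complement receptor 3, which binds complement-coated particles (chromosome 7, 128062640 to 128118491). It averaged 1.62 ± 0.528 CPM in hIAPP islets at 16.7 mM and 1.87 ± 0.614 CPM at 11.1 mM, with a log2 fold change of -0.23 ± 0.24 (SD for levels, n = 8). In mIAPP islets it averaged 1.11 ± 0.414 CPM at 16.7 mM and 1.36 ± 0.538 CPM at 11.1 mM, with a log2 fold change of -0.30 ± 0.24. Itgam shares 3450 bases, 68.7% of its exons, with Gm49368 on the same strand, so that the counting could split reads between them. Gm49368 held few of them, since Itgam made up 94.1% to 99.7% of their summed level in the 4 groups. Mrc1 encodes the mannose receptor CD206, often used as a marker of alternatively activated macrophages (chromosome 2, 14229392 to 14332057). It averaged 1.29 ± 0.213 CPM in hIAPP islets at 16.7 mM and 1.07 ± 0.399 CPM at 11.1 mM, and 1.12 ± 0.398 CPM in mIAPP islets at 16.7 mM and 1.00 ± 0.515 CPM at 11.1 mM. Its log2 fold changes, 0.36 ± 0.27 in hIAPP islets and 0.15 ± 0.27 in mIAPP islets, did not pass (adjusted p = 0.242 and 0.659 by edgeR).

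The 3 complement genes encode the chains of C1q, the recognition molecule of the classical complement pathway, which macrophages produce in most tissues. They lie within 18.675 kb of each other on chromosome 4 (136880129 to 136898803). C1qa had 36.4, 41.5 and 56.2 CPM in hIAPP islets at 16.7 mM, against 56.3, 83.9 and 110.1 CPM at 11.1 mM. The mIAPP libraries had 30.3, 36.7 and 45.9 CPM at 16.7 mM, against 52.5, 70.6 and 108.7 CPM at 11.1 mM. No library at 16.7 mM reached the lowest at 11.1 mM in either genotype, by a narrow margin in hIAPP islets. C1qb had 8.14, 14.6 and 25.0 CPM in hIAPP islets at 16.7 mM, against 29.8, 62.6 and 71.0 CPM at 11.1 mM. In mIAPP islets C1qb had 8.82, 19.8 and 42.4 CPM at 16.7 mM, against 22.3, 50.8 and 74.0 CPM at 11.1 mM, and these ranges overlapped. C1qc, whose hIAPP libraries did not overlap and whose mIAPP libraries did, averaged 13.6 ± 4.40 CPM in hIAPP islets at 16.7 mM and 33.3 ± 9.51 CPM at 11.1 mM. In mIAPP islets C1qc averaged 12.9 ± 5.29 CPM at 16.7 mM and 28.9 ± 9.48 CPM at 11.1 mM.

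All 3 chains passed in both genotypes. In hIAPP islets C1qa fell 1.94-fold (log2 -0.96 ± 0.13, adjusted p = 7.10e-07 by edgeR), C1qb 3.39-fold (log2 -1.76 ± 0.16, adjusted p = 1.16e-09) and C1qc 2.46-fold (log2 -1.30 ± 0.20, adjusted p = 6.69e-06). In mIAPP islets the log2 fold changes lay closer together, at -0.99 ± 0.13 for C1qa, -1.25 ± 0.16 for C1qb and -1.22 ± 0.21 for C1qc, and the genotypes' falls did not differ past the threshold for any of the 3 chains, with adjusted p = 0.943 for C1qa, 0.220 for C1qb and 0.918 for C1qc by edgeR's test of the interaction.

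Lyz2 and Cd68 belong to the lysosomal and secretory equipment of the cell. Lyz2 encodes the lysozyme made by macrophages and other myeloid cells (chromosome 10, 117277331 to 117282321). It had 16.9, 34.2 and 57.9 CPM in hIAPP islets at 16.7 mM, against 66.3, 97.5 and 129.8 CPM at 11.1 mM. The mIAPP libraries had 23.7, 37.7 and 73.4 CPM at 16.7 mM, against 50.8, 71.5 and 132.5 CPM at 11.1 mM. The hIAPP libraries stood apart by concentration and the mIAPP libraries overlapped. Lyz2 fell 2.83-fold in hIAPP islets (log2 -1.499 ± 0.19, adjusted p = 1.95e-07 by edgeR) and 1.85-fold in mIAPP islets (log2 -0.89 ± 0.18, adjusted p = 0.000326). The neighbouring Lyz1, a close copy used mainly by Paneth cells of the gut, had 0 to 9 counts per library. Cd68, a glycoprotein of the lysosomal membrane (chromosome 11, 69664213 to 69666153), had 11.1, 14.1 and 19.6 CPM in hIAPP islets at 16.7 mM, against 12.1, 15.7 and 28.1 CPM at 11.1 mM. In mIAPP islets Cd68 had 6.48, 8.50 and 12.6 CPM at 16.7 mM, against 8.19, 13.7 and 20.8 CPM at 11.1 mM. Ranges overlapped in both genotypes. Its log2 fold change was -0.27 ± 0.18 in hIAPP islets, where it did not pass (adjusted p = 0.190 by edgeR), and -0.74 ± 0.19 in mIAPP islets, where it fell 1.67-fold and was lower in 7 of 8 sets (adjusted p = 0.00213).

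**Figure D2:**
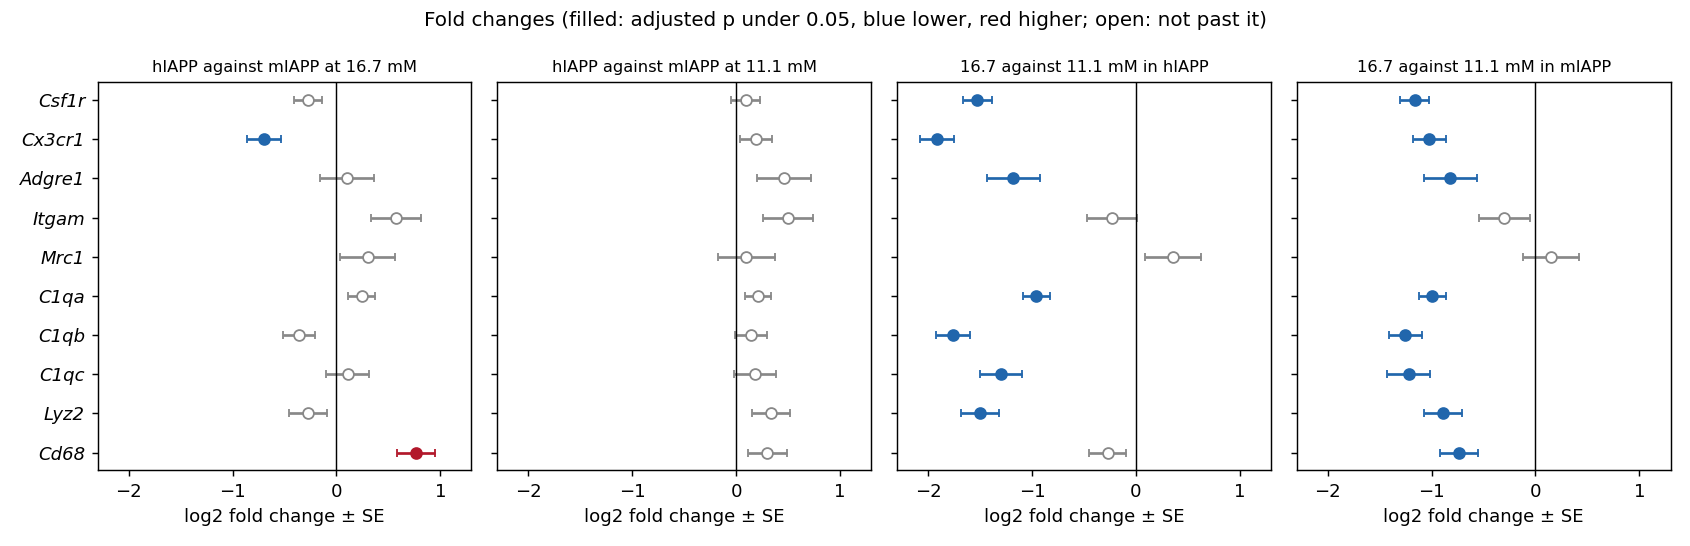
Log2 fold changes ± SE of the 10 members in 4 comparisons, on 1 scale. Filled points passed an adjusted p of 0.05 in edgeR's quasi-likelihood test, blue for lower and red for higher, and open points did not. In both glucose comparisons most points lie left of 0, down to -1.91 for Cx3cr1 in hIAPP islets, with Itgam and Mrc1 near 0, and in the genotype comparisons only Cx3cr1 and Cd68 at 16.7 mM are filled.

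Other measures moved with glucose beside the members. The share of mitochondrially encoded counts was 2.68% to 6.76% in hIAPP islets and 2.84% to 37.0% in mIAPP islets at 16.7 mM, against 5.23% to 27.2% in hIAPP islets and 3.49% to 34.7% in mIAPP islets at 11.1 mM. With the mitochondrial level in the fit, the same 7 members passed in hIAPP islets and the same 8 in mIAPP islets. In that fit 3181 genes passed in all in hIAPP islets and 5805 in mIAPP islets, against 10768 and 7805 without it. The same members also passed among the libraries with under 10% mitochondrial counts, where 3881 and 5181 genes passed in all. That limit left 8 and 5 libraries of hIAPP and mIAPP islets at 16.7 mM, and 2 and 3 at 11.1 mM. Both concentrations were thus left only in sets 3 and 4 of hIAPP islets and in sets 3, 4 and 5 of mIAPP islets. In hIAPP islets the 7 log2 fold changes then ran from -2.14 for Adgre1 to -1.02 for C1qa with the mitochondrial level in the fit, and from -2.05 for Cx3cr1 to -0.86 for C1qa in those libraries. Adgre1 moved most, to -2.14 and -1.80 in these fits, against -1.18 over all libraries without that term, while Csf1r had -1.52 and -1.53. C1qb had -1.32 and C1qc -1.66 with the mitochondrial level in the fit. In mIAPP islets Adgre1 had -1.22 with it and -1.10 in those libraries. Markers of other cells also moved. In hIAPP islets 8 of 8 endothelial, 6 of 8 stellate and fibroblast and 6 of 6 beta cell markers fell, where 33.3% of all genes tested fell. In mIAPP islets 5 of 8, 2 of 8 and 2 of 6 fell, where 22.7% did. Of 7 acinar markers tested, 1 fell and 1 rose in hIAPP islets, and 1 fell in mIAPP islets. Among 3 B and T cell markers tested, 2 fell in hIAPP and 1 in mIAPP islets. Dendritic cell markers fell in 2 of 2 and 1 of 2 cases, and monocyte markers in 1 of 2 and 0 of 2. Of 3 neutrophil markers tested, 2 fell and 1 rose in hIAPP islets, and 3 fell in mIAPP islets. The summed endothelial markers had 13.4, 32.3 and 47.6 CPM in hIAPP islets at 16.7 mM, against 43.0, 74.0 and 124 CPM at 11.1 mM. In mIAPP islets they had 29.9, 56.3 and 102 CPM at 16.7 mM, against 50.0, 75.2 and 155 CPM at 11.1 mM. The part of these cell types in the members' falls was not tested.

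**Figure D3:**
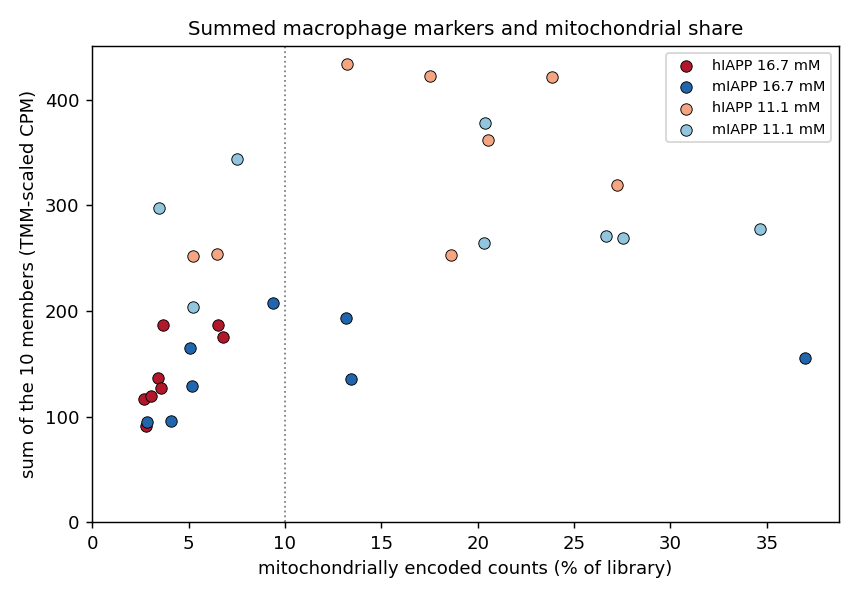
Sum of the 10 members (y axis, TMM-scaled CPM) against the share of mitochondrially encoded counts (x axis, percent of the library), 1 point a library, with a dotted line at 10%. At 16.7 mM the sums lie at or under 207 CPM at every mitochondrial share up to 37.0%, and at 11.1 mM they lie at or above 204 CPM from 3.49% upwards.

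The second comparison sets hIAPP against mIAPP islets. At 16.7 mM, 1 member rose (Cd68) and 1 fell (Cx3cr1), which as 2 of 10 is near the background, since 20.5% of all genes tested passed at this concentration, 9.27% as higher and 11.2% as lower. No member's groups were free of overlap, as were those of 2.39% of all genes tested on the higher and 0.584% on the lower side. The median log2 fold change was 0.11 over the members and -0.0076 over all genes tested. Cd68 stood at 11.1, 14.1 and 19.6 CPM in hIAPP islets, against 6.48, 8.50 and 12.6 CPM in mIAPP islets. The ranges overlapped at their edges, and the hIAPP library was the higher one in all 8 sets. The share of all genes tested that were higher in all 8 sets was not computed. This holds for Itgam and Csf1 below as well. Cd68 was 1.70-fold higher (log2 0.76 ± 0.18, adjusted p = 0.00526 by edgeR). Cx3cr1 stood at 1.78, 4.09 and 6.96 CPM in hIAPP islets, against 3.79, 6.50 and 9.83 CPM in mIAPP islets. Its ranges overlapped, and the hIAPP library was the lower one in all 8 sets, as was the case for 7.70% of all genes tested. Cx3cr1 was 1.62-fold lower (log2 -0.70 ± 0.16, adjusted p = 0.00378 by edgeR).

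Both genotype calls were lost with the mitochondrial level in the fit. There, Cd68 had a log2 fold change of 0.62 with an adjusted p of 0.151, and Cx3cr1 one of -0.59 with an adjusted p of 0.112, by edgeR. Among the libraries with under 10% mitochondrial counts Cd68 had 0.63 with an adjusted p of 0.0723, while Cx3cr1 still passed, at -0.85 with an adjusted p of 0.0169. Without the block on sets Cx3cr1 had -0.68 with an adjusted p of 0.0508. Markers of other cells also differed at 16.7 mM, where 11.2% of all genes tested were lower and 9.27% higher in hIAPP islets. Lower were 5 of 8 endothelial, 4 of 6 beta cell, 2 of 3 B and T cell and 1 of 8 stellate and fibroblast markers. Of 3 neutrophil markers tested, 1 was lower and 1 higher. No acinar, monocyte or dendritic cell marker passed. The part of these cell types in the differences was not tested. The other 8 members did not pass, with log2 fold changes from -0.36 ± 0.16 for C1qb to 0.57 ± 0.24 for Itgam. Itgam was the higher one in hIAPP islets in all 8 sets, with an adjusted p of 0.0887 by edgeR.

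At 11.1 mM no member passed, and 0.128% of all genes tested did, 0.110% as higher and 0.0183% as lower. No member's groups were free of overlap and none was lower in all 8 sets. Among all genes tested 0.0791% were higher and 0.0122% lower without overlap, and 0.597% were lower in all 8 sets. All 10 estimates were positive, from 0.091 for Csf1r to 0.50 for Itgam on the log2 scale, with a median of 0.20 against 0.0037 over all genes tested. Itgam, as 1 member, and 1121 genes in all had an unadjusted p under 0.05 by edgeR, and DESeq2 called 0 members as well. The sum of the members stood at 252, 341 and 434 CPM in hIAPP islets, against 204, 274 and 378 CPM in mIAPP islets, with wide overlap. In the libraries with under 10% mitochondrial counts, 2 of hIAPP and 3 of mIAPP islets, 6 of the 10 estimates at 11.1 mM were negative. The 8 members with no genotype call at 16.7 mM and the 10 with none at 11.1 mM are not thereby shown to be at equal levels.

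**Figure D4:**
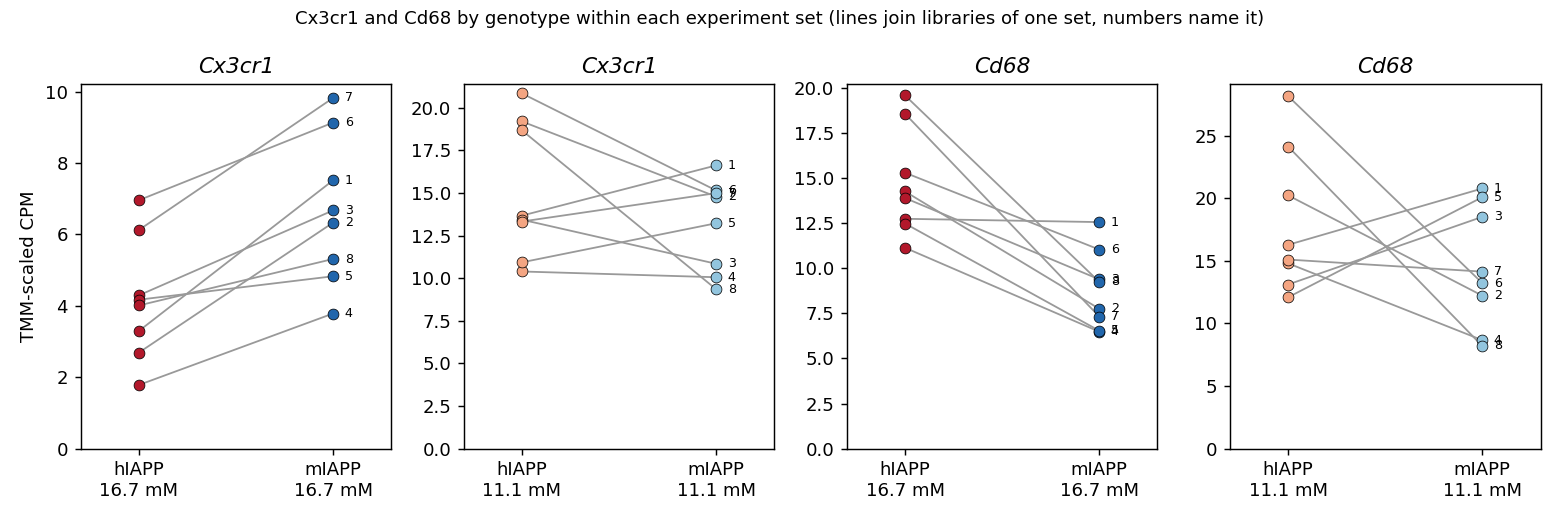
Cx3cr1 and Cd68 in hIAPP and mIAPP islets of each set, with TMM-scaled CPM on the y axis, a line joining the 2 libraries of a set and the set's number at the right. At 16.7 mM every line of Cx3cr1 ends higher in mIAPP islets and every line of Cd68 ends lower there, while at 11.1 mM lines cross in both directions.

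The third comparison asks whether the response to glucose differed between the genotypes. Of the 10 members 1 passed, Cx3cr1, where 3.12% of all genes tested passed, 0.950% as more negative and 2.17% as more positive in hIAPP islets. Its log2 fold change with glucose was -1.91 in hIAPP islets and -1.02 in mIAPP islets, a difference of -0.89 ± 0.22 (adjusted p = 0.0259 by edgeR). This call did not hold without set 1 (adjusted p = 0.0708), 2 (0.0752), 4 (0.0530), 6 (0.0607) or 8 (0.0644), where the difference lay between -0.90 and -0.79. It did not pass with the mitochondrial level in the fit (-0.77, adjusted p = 0.168), nor in the libraries with under 10% mitochondrial counts (-1.002, adjusted p = 0.246). Without the block on sets it did not pass either (-0.88, adjusted p = 0.220 by edgeR). For the other 9 members the difference did not pass, with values from -0.61 ± 0.26 for Lyz2 to 0.46 ± 0.26 for Cd68.

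The members were then set against Csf1r within each library, since Csf1r is restricted to mononuclear phagocytes, to see which genes changed relative to it. For each of the other 9 genes the log2 ratio of its CPM to that of Csf1r, each with 0.5 added, was differenced within the 8 sets and tested with an exact two-sided sign-flip permutation test, adjusted over the 36 ratios compared. The smallest p this test can give is 0.0078125, and the smallest adjusted p reached was 0.0256. Of the 36 ratios 14 passed, 13 higher and 1 lower, each with an unadjusted p of at most 0.015625. No ratio passed between hIAPP and mIAPP islets at 11.1 mM, where 0.170% of the other 16427 genes tested had a ratio to Csf1r higher with a p that small and 0.846% one lower. Csf1r itself fell with glucose, and most genes were higher relative to it: by the same measure 89.2% of the other genes tested had a higher ratio with glucose in hIAPP islets and 0.170% a lower one, and in mIAPP islets 84.8% had a higher and 0.0670% a lower one. The median difference in log2 ratio was 0.41 over the 9 members and 1.46 over these genes in hIAPP islets, and 0.25 over the members and 1.12 over these genes in mIAPP islets. A higher ratio to Csf1r with glucose is what most genes showed, so it does not by itself set a member apart. A smaller part of the 9 members had one, 5 in hIAPP and 3 in mIAPP islets.

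With glucose in hIAPP islets, 5 ratios to Csf1r were higher, each in 8 of 8 sets. The difference in log2 ratio was 1.70 ± 0.475 for Mrc1, 1.33 ± 0.605 for Itgam, 1.24 ± 0.319 for Cd68, 0.54 ± 0.200 for C1qa and 0.21 ± 0.128 for C1qc (SD, n = 8, exact permutation test, adjusted p = 0.0256 each). The ratios of C1qb, Lyz2, Adgre1 and Cx3cr1 to Csf1r did not pass, at -0.24 ± 0.296, -0.032 ± 0.265, 0.41 ± 0.490 and -0.30 ± 0.299. In mIAPP islets 3 ratios were higher with glucose: Mrc1 by 1.27 ± 0.443, Itgam by 0.93 ± 0.748 and Adgre1 by 0.43 ± 0.322. The call of Adgre1 was lost with a pseudocount of 0.1 CPM and without the block on sets (highest adjusted p = 0.313 over its alternatives, exact permutation tests). That of Itgam was lost with a pseudocount of 0.1 CPM and when any single set other than set 6 was left out (highest adjusted p = 0.0804). Among the C1q chains, the ratios of C1qa and C1qc passed in hIAPP islets and that of C1qb did not, and the chains were not tested against each other. A ratio shows unequal change and does not show which of the 2 genes moved.

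Between the genotypes at 16.7 mM, 6 of the 9 ratios passed, 5 as higher and 1 as lower, where 14.7% of the other genes tested had a higher and 0.524% a lower ratio with a p as small. The median difference in log2 ratio was 0.36 over the 9 members and 0.25 over those genes. Cd68 relative to Csf1r had a mean log2 ratio of 0.66 ± 0.229 in hIAPP islets and -0.33 ± 0.149 in mIAPP islets, a 1.97-fold difference seen in 8 of 8 sets (exact permutation test, adjusted p = 0.0256). Itgam (0.65 ± 0.390), C1qa (0.50 ± 0.330), C1qc (0.36 ± 0.332) and Mrc1 (0.44 ± 0.460) were also higher relative to Csf1r in hIAPP islets. Cx3cr1 was lower relative to it, by a log2 ratio of -0.40 ± 0.315, in 7 of 8 sets (exact permutation test, adjusted p = 0.0402). Leaving out 1 set raises the smallest p the test can give, and without set 2 or without set 8 no ratio of the 36 passed, while without any other single set 12 or 14 passed. The Mrc1 call between the genotypes was lost without the block on sets and without any of sets 1, 2, 3, 5, 6, 7 and 8 (highest adjusted p = 0.175, exact permutation tests), and the Cx3cr1 call without any of sets 2 to 8 (highest adjusted p = 0.0804).

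**Figure D5:**
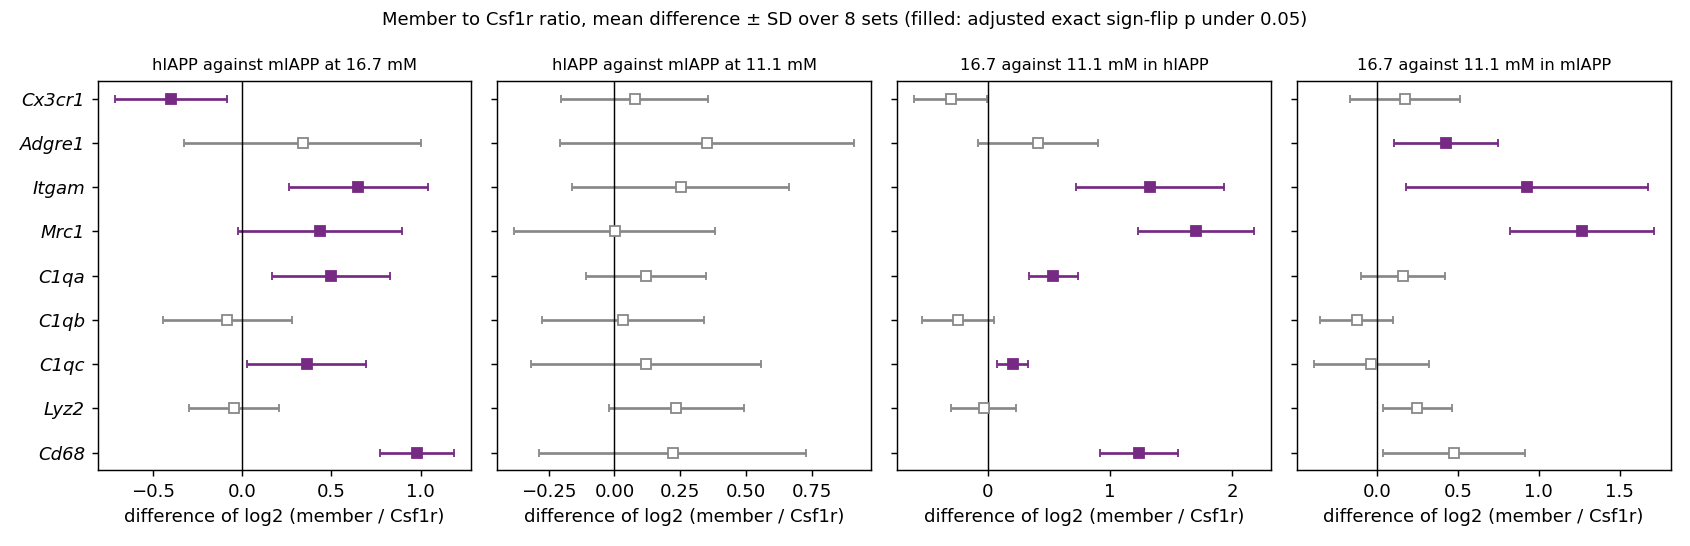
Difference in the log2 ratio of each member to Csf1r in 4 comparisons, as mean ± SD over 8 sets, with an x axis of its own in each panel. Filled squares passed an adjusted p of 0.05 in the exact sign-flip test. Mrc1, Itgam and Cd68 lie far right of 0 with glucose in hIAPP islets, at 1.70, 1.33 and 1.24, and Cx3cr1 is the filled square left of 0 between the genotypes at 16.7 mM.

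Across the libraries the members varied together to different degrees. After the group means were removed, C1qc had a Pearson r of 0.93 with the mean of the other 9 members over 32 libraries, Csf1r 0.92, Lyz2 0.86, Cd68 0.84, Cx3cr1 0.72, C1qa 0.65, C1qb 0.58, Adgre1 0.53, Itgam 0.50 and Mrc1 0.16. These values share their libraries and depth and are given as a description. The hIAPP library of set 4 at 16.7 mM was the lowest of its group for 9 of the 10 members, and that of set 6 was the highest for 6. At 11.1 mM the mIAPP library of set 1 was the highest of its group for 6. The genes outside the list most like the mean of the members by the same measure were Apoe (0.90), Cd300c2 (0.89), Vsir (0.88), Itgax (0.87), Trf (0.87), Stab1 (0.86), Mmp12 (0.82) and Ly86 (0.82). Apoe encodes apolipoprotein E, Itgax the integrin CD11c, Trf transferrin, Stab1 a scavenger receptor, Mmp12 macrophage elastase and Ly86 the MD-1 protein.

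Other genes of the macrophage programme are given from lists, beginning with its transcription factors. Calls for the listed genes outside the members come from the main fit. They were not checked with the mitochondrial level in the fit or under the other settings. Of 9 factors tested, 5 fell with glucose in hIAPP islets, where 33.3% of all genes tested fell, and 7 in mIAPP islets, where 22.7% did, and none rose, against 32.2% and 24.9% of all genes tested. Spi1, which encodes PU.1, averaged 2.56 ± 0.809 CPM in hIAPP islets at 16.7 mM and 5.66 ± 1.65 CPM at 11.1 mM (log2 -1.15 ± 0.19), and 2.59 ± 1.22 CPM in mIAPP islets at 16.7 mM and 4.93 ± 1.86 CPM at 11.1 mM (log2 -0.97 ± 0.20). Maf fell by 1.67 ± 0.19 and Irf8 by 1.42 ± 0.19 on the log2 scale in hIAPP islets, and Irf5 by 1.41 ± 0.22. Between hIAPP and mIAPP islets at 16.7 mM only Maf passed, 1 of 9 where 11.2% of all genes tested were lower, at -1.05 ± 0.19 (adjusted p = 0.000367 by edgeR).

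Of 21 further macrophage genes tested, 16 fell with glucose in hIAPP islets and 15 in mIAPP islets, against 33.3% and 22.7% of all genes tested, and none rose. The list's median log2 fold change was -1.24 in hIAPP islets and -0.74 in mIAPP islets. Aif1, which encodes the cytoskeletal protein IBA1, averaged 1.58 ± 0.805 CPM in hIAPP islets at 16.7 mM and 9.16 ± 3.45 CPM at 11.1 mM (log2 -2.60 ± 0.22, adjusted p = 2.72e-10 by edgeR). In mIAPP islets Aif1 fell by 1.29 ± 0.21 on the log2 scale. Apoe averaged 101 ± 38.3 CPM in hIAPP islets at 16.7 mM and 347 ± 97.4 CPM at 11.1 mM, and 153 ± 41.0 CPM in mIAPP islets at 16.7 mM and 279 ± 54.4 CPM at 11.1 mM. Aif1 and Apoe were the 2 genes of the list whose response to glucose differed between the genotypes (3.12% of all genes tested), by -1.31 ± 0.29 (adjusted p = 0.0101 by edgeR) and -0.91 ± 0.22 (adjusted p = 0.0213). Trem2, a lipid receptor of macrophages and microglia, fell by 1.37 ± 0.17 on the log2 scale in hIAPP islets and by 1.12 ± 0.17 in mIAPP islets. The table lists Trem2 in 2 rows with the same counts, and it was used once.

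Between hIAPP and mIAPP islets at 16.7 mM, 2 of these 21 genes rose and 5 fell, against 9.27% and 11.2% of all genes tested. Cd14, a co-receptor for lipopolysaccharide, averaged 5.14 ± 1.39 CPM in hIAPP islets and 2.32 ± 0.879 CPM in mIAPP islets (log2 1.2001 ± 0.29, adjusted p = 0.0048 by edgeR). Msr1, the class A scavenger receptor, averaged 2.58 ± 0.801 CPM in hIAPP islets and 1.59 ± 0.325 CPM in mIAPP islets (log2 0.67 ± 0.17, adjusted p = 0.00616). Aif1 (-1.08 ± 0.21), Siglec1 (-1.07 ± 0.25), Apoe (-0.62 ± 0.16), Laptm5 (-0.54 ± 0.16) and Fcer1g (-0.49 ± 0.15) fell. None of the 21 passed at 11.1 mM.

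The ligands of the members' receptors come from a list of 9 genes, of which 5 were tested; 2 rose between the genotypes at 16.7 mM, as did 9.27% of all genes tested. Csf1, the ligand of Csf1r, averaged 14.4 ± 2.67 CPM in hIAPP islets at 16.7 mM and 7.72 ± 1.85 CPM in mIAPP islets at 16.7 mM (log2 0.96 ± 0.17, adjusted p = 0.000272 by edgeR, higher in 8 of 8 sets). At 11.1 mM Csf1 averaged 11.6 ± 3.01 CPM in hIAPP islets and 12.9 ± 4.33 CPM in mIAPP islets, and its response to glucose differed between the genotypes by 1.10 ± 0.24 (adjusted p = 0.00798). Il34, the other ligand, averaged 1.28 to 2.04 CPM in the 4 groups and passed in no comparison. Cx3cl1, which encodes fractalkine, fell with glucose by 0.76 ± 0.19 in hIAPP islets and 0.86 ± 0.19 in mIAPP islets on the log2 scale. Of the 5 genes tested, Cx3cl1 fell and Ccl2 rose with glucose in hIAPP islets, and Cx3cl1 and Csf1 fell in mIAPP islets. Of all genes tested, 33.3% fell and 32.2% rose in hIAPP islets, and 22.7% fell and 24.9% rose in mIAPP islets. Ccl2, a chemokine that attracts monocytes, averaged 4.27 ± 1.37 CPM in hIAPP islets at 16.7 mM, against 0.185 ± 0.118 CPM in mIAPP islets at 16.7 mM (log2 4.59 ± 0.56, adjusted p = 2.02e-06 by edgeR). In hIAPP islets at 11.1 mM Ccl2 averaged 0.313 ± 0.383 CPM, and in mIAPP islets 0.180 ± 0.199 CPM.

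The partners and receptors of complement were split. Of 11 tested, 6 fell and 2 rose with glucose in hIAPP islets, and 7 fell and 1 rose in mIAPP islets. Among all genes tested 33.3% fell and 32.2% rose in hIAPP islets, and 22.7% fell and 24.9% rose in mIAPP islets. C3, the central component of the cascade, rose in both, averaging 22.7 ± 8.93 CPM in hIAPP islets at 16.7 mM and 5.12 ± 3.30 CPM at 11.1 mM (log2 2.20 ± 0.27), and 16.9 ± 6.44 CPM in mIAPP islets at 16.7 mM and 5.80 ± 2.31 CPM at 11.1 mM (log2 1.56 ± 0.27). Cfp, which encodes properdin, fell by 1.79 ± 0.21 in hIAPP islets and by 1.00 ± 0.20 in mIAPP islets on the log2 scale. Itgax fell by 1.058 ± 0.19 and 0.79 ± 0.19 on the log2 scale in hIAPP and mIAPP islets, and Itgam passed in neither. Between hIAPP and mIAPP islets at 16.7 mM, C3ar1, the receptor for the C3a fragment, rose by 0.87 ± 0.16 (adjusted p = 0.000514 by edgeR), C1ra by 0.87 ± 0.24, C5ar1 by 0.62 ± 0.19 and Serping1, the C1 inhibitor, by 0.35 ± 0.12, while Cfp fell by 1.03 ± 0.20, so that 4 of 11 rose and 1 fell, against 9.27% and 11.2% of all genes tested.

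Of 12 genes of macrophage activation, 6 passed the filter on low counts, and 2 of these rose between the genotypes at 16.7 mM, as did 9.27% of all genes tested. In hIAPP islets at 16.7 mM Nos2, the inducible nitric oxide synthase, averaged 2.32 ± 1.11 CPM, against 0.161 ± 0.138 CPM in mIAPP islets at 16.7 mM (log2 4.05 ± 0.56, adjusted p = 1.08e-05 by edgeR). Il6 averaged 0.866 ± 0.825 CPM in hIAPP islets and 0.229 ± 0.190 CPM in mIAPP islets at 16.7 mM (log2 1.78 ± 0.44, adjusted p = 0.00685). With glucose, 3 of the 6 rose in hIAPP islets (Tnf, Il1b and Nos2), as did 32.2% of all genes tested. None rose in mIAPP islets, where 24.9% of all genes tested did. Nos2 was the 1 gene of the list whose response to glucose differed between the genotypes (3.12% of all genes tested). Il1b averaged 3.44 ± 0.966 CPM at 16.7 mM and 1.99 ± 0.343 CPM at 11.1 mM in hIAPP islets (log2 0.78 ± 0.24, adjusted p = 0.00682 by edgeR). Arg1 averaged 15.8 to 19.0 CPM in the 4 groups and passed in no comparison. Which cells of the islet made these transcripts was not measured.

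Markers of other leukocytes were also summed. The 9 neutrophil markers summed to 3.28, 5.99 and 37.0 CPM (lowest, median and highest) in hIAPP islets and 2.20, 4.28 and 9.51 CPM in mIAPP islets at 16.7 mM, and to 4.82, 7.43 and 10.8 CPM in hIAPP islets and 3.87, 8.49 and 13.1 CPM in mIAPP islets at 11.1 mM. Their part in the members' values was not tested. Dendritic cell markers summed to at most 5.16 CPM in any library, with Cd209a at 0 in all of them, and B and T cell markers to at most 10.98 CPM. Of 3 neutrophil markers tested, S100a9 stood at 0.855, 2.84 and 22.7 CPM in hIAPP islets at 16.7 mM and had no count in any mIAPP library at 16.7 mM, while Ly6g, the defining surface marker, reached at most 0.0300 CPM. Acinar markers, from exocrine tissue carried along with islets, summed to 12.98 to 75.9 CPM in hIAPP islets and 6.66 to 197 CPM in mIAPP islets at 16.7 mM, and to 14.2 to 183 CPM in hIAPP islets and 34.3 to 152 CPM in mIAPP islets at 11.1 mM. Csf3r and Cxcr2, the other 2 neutrophil markers, fell with glucose in both genotypes, Cxcr2 by 1.60 ± 0.23 in hIAPP islets and 0.84 ± 0.22 in mIAPP islets on the log2 scale.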

How the data were processed

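RNA of 32 islet libraries, 8 in each of 4 groups, was analysed from 1 table of 36595 genes. Per the submitters' processing notes, the authors used bcl2fastq 1.8.4 for demultiplexing, kallisto 0.45.0 for quantification and the GRCm38 build. The deposited values are expected counts per gene, given as whole numbers and not scaled to library size, so kallisto's splitting of reads among overlapping genes stays in them. How transcripts were summed to genes is not given in the sources used here. Totals were 16.1 to 43.7 M per library.

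Genes kept by edgeR's filterByExpr (16428) were fitted with edgeR 4.0.16 in R 4.3.3 (quasi-likelihood, TMM factors, limma 3.58.1) over all 32 libraries, with the set of experiments as a block, 21 residual degrees of freedom and Benjamini-Hochberg adjustment over all genes tested at a threshold of 0.05. The labels state that each set held the 4 groups. Same-set libraries had mean correlations of deviations of 0.168 to 0.362 over the 6 pairs of groups, the lowest single value being -0.230. CPM were computed from the deposited counts with TMM-scaled totals. Ratios to Csf1r were tested with NumPy 2.4.6 and a pseudocount of 0.5 CPM, and their alternative without the block used SciPy 1.17.1. Exon lengths came from GENCODE M21, and promoter sequences from RefSeq on GRCm38.p6. Among the genes, 1399 rows share a symbol with another row, and 827 of these repeat the same counts. Fits were tested on simulated data. DESeq2 1.42.0, other scaling, no filter, the mitochondrial level, libraries left out and no block were tried as alternatives. All members, up to 4 genes a list and comparison by smallest p, cell type markers and the 8 genes most like the members are named. The members and lists were chosen with earlier results of these data known.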

Additional observations from a re-analysis of the deposited data

Results flagged for a closer look

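In mIAPP islets at 11.1 mM, the library of set 5 had 108.7 CPM of C1qa, with the nearest of the other 7 at 75.3 CPM, and stood apart from its group by Dixon's 95% criterion. In the same group the library of set 1 had 132.5 CPM of Lyz2, with the nearest other at 82.9 CPM. These were 2 of 40 combinations of member and group looked at, and chance gives about 1 in 20. The response of Cx3cr1 to glucose differed between hIAPP and mIAPP islets by -0.89 on the log2 scale, by edgeR's test of the interaction. This call was lost under 8 of 17 other settings, though the difference kept its sign.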

How the results depend on the processing

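Of 1246 values recomputed under other settings, 1137 kept their direction and their side of the threshold or stayed within the margin set for counts, and 42 changed sign. In both glucose comparisons the number of members called, 7 in hIAPP and 8 in mIAPP islets, was the same under all 17 settings. Without the replicate block, 1 member (Cd68) passed between the genotypes at 16.7 mM, with 1301 genes in all, and 0 members and 196 genes passed for the interaction. With the mitochondrial level in the fit, 0 members and 752 genes passed between the genotypes at 16.7 mM, 3181 genes with glucose in hIAPP islets, and 0 members and 260 genes for the interaction. In libraries under 10% mitochondrial counts, 1 member (Cx3cr1) and 1133 genes passed between the genotypes at 16.7 mM, 10 genes at 11.1 mM, 3881 and 5181 genes with glucose in hIAPP and mIAPP islets, and 0 members and 7 genes for the interaction. With set 7 of mIAPP islets at 16.7 mM left out, 2108 genes passed between the genotypes at 16.7 mM. DESeq2 called 35 genes between the genotypes at 11.1 mM and 959 for the interaction. Leaving out 1 set at a time gave 1623 to 3841 genes between the genotypes at 16.7 mM, 0 to 1 members and 239 to 558 genes for the interaction, and 0 to 14 ratios to Csf1r. The causes of these changes were not tested.

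Values that changed sign belonged to members that did not pass. Between the genotypes at 16.7 mM they were Adgre1 (-0.44), C1qc (-0.10) and Mrc1 (-0.085) with the mitochondrial level in the fit, Adgre1 (-0.33), C1qc (-0.17) and Mrc1 (-0.027) in libraries under 10% mitochondrial counts, and Adgre1 (-0.074) with that mIAPP library of set 7 left out. At 11.1 mM they were, in libraries under 10%, Csf1r (-0.22), C1qa (-0.19), C1qb (-0.12), C1qc (-0.32), Cd68 (-0.046) and Mrc1 (-0.085). With glucose, Mrc1 had -0.34 in hIAPP and -0.12 in mIAPP islets with the mitochondrial level, and -0.20 and -0.26 in libraries under 10%. The interaction was -0.0030 for C1qa, -0.0092 for Itgam and -0.22 for Mrc1 with the mitochondrial level, and 0.15 for C1qc and -0.53 for Itgam in libraries under 10%. With 1 set left out, log2 fold changes ranged between the genotypes at 16.7 mM from -0.19 to 0.22 for Adgre1 and from -0.067 to 0.25 for C1qc, at 11.1 mM from -0.079 to 0.22 for Mrc1, and for the interaction from -0.29 to 0.067 for C1qc, from -0.14 to 0.15 for C1qa and from -0.064 to 0.29 for Itgam. Log2 ratios to Csf1r ranged from -0.086 to 0.014 for Lyz2 and from -0.14 to 0.031 for C1qb between the genotypes at 16.7 mM, from -0.073 to 0.065 for Mrc1 and from -0.043 to 0.090 for C1qb at 11.1 mM, from -0.074 to 0.017 for Lyz2 with glucose in hIAPP islets and from -0.11 to 0.026 for C1qc in mIAPP islets. Summing Itgam with Gm49368, an alternative chosen after seeing the data, changed no member's call. Itgam and Mrc1 had 3 to 92 counts per library. Their SEs with glucose, 0.24 for Itgam and 0.27 for Mrc1 in both genotypes, were near the 0.26 of Adgre1. Adgre1 passed at -0.82 in mIAPP islets, and differences well below that size could have been missed.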
